A study of Mus musculus with 4 samples.

Results

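The kinesin genes of mouse bone marrow stromal cells were followed after loss of Setd2. Kinesins are motor proteins that use ATP to act on microtubules. One branch works in dividing cells, where it builds the spindle, moves chromosomes and separates the daughter cells, and its genes are switched on late in the cell cycle. Another branch carries vesicles, organelles and cilium components through cells at any stage. The members were all genes of the deposited count table that are marked as mRNA and named Kif with a number and at most a letter from a to c, or Kifc with a digit. This gave 40 genes of 44788 in the table. By known function 13 were placed with the mitotic motors, 15 with the transport motors and 12 with motors of cilia, signalling and microtubule dynamics.

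The cells came from Setd2 fl/fl mice of strain C57BL/6J, in which loxP sites flank a part of Setd2, the gene of the histone H3 lysine 36 methyltransferase. In the Cre group they received a lentivirus with Cre recombinase, which removes that part (labelled KO). In the GFP group they received a lentivirus with GFP (labelled WT, although these cells carry the floxed alleles too). Both groups were at passage 2, were kept in puromycin at 2 µg/ml for 4 days and had 2 RNA sequencing libraries each. The labels name no separate animal or culture for a library, so the p-values cover the spread between libraries alone, which may be technical. With GFP as the control, loss of Setd2 and the presence of Cre cannot be told apart. The Cre libraries held 14311924 and 14315903 counts and the GFP libraries 12806928 and 12371994. Levels are given as CPM, the reads of a gene relative to all reads of its library, with library sizes scaled by the TMM method. A positive log2 fold change means a higher level in Cre.

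Setd2 itself, on chromosome 9 from 110532500 to 110618633 (GRCm38), had 38.1 and 32.3 CPM in the Cre libraries, against 107 and 106 CPM in the GFP libraries (log2 fold change -1.60 ± 0.08 standard error, SE, edgeR adjusted p = 3.65e-15). Its level went with the labels in all 4 libraries, though without GFP replicate 2 the adjusted p was 0.124. Stromal genes were abundant: 12 marker genes summed to 19542 and 20575 CPM in Cre and 15707 and 15567 CPM in GFP, with Col1a1 and Col1a2 highest. Of the 12, 4 rose (Thy1, Ly6a, Col1a1 and Col1a2) and 1 fell (Cxcl12). Macrophage genes were present as well, with a sum over 13 genes of 2528 and 2518 CPM in Cre and 2140 and 2204 CPM in GFP. Of the 13, 5 rose and 1, Emr1, fell, where edgeR called 3.74% of all genes higher and 3.22% lower. The lymphocyte, red cell, endothelial and granulocyte lists each summed to under 10 CPM in every library, with Ms4a1, Cd3e, Cd3g, Hba-a1, Hbb-bs, Hbb-bt, S100a9 and Elane at 0 in all 4. The lymphocyte sum was nearly all Cd4, which rose, with 8.58 and 8.85 CPM in Cre and 5.48 and 4.85 CPM in GFP (log2 fold change 0.75, adjusted p = 0.0027). A list of 6 Schwann cell and neuronal genes, nearly all of it Tubb3, summed to 166 and 172 CPM in Cre and 136 and 124 CPM in GFP. GFP replicate 2 stood apart in 6 genes chosen as signs of library make-up. They were the ribosomal RNA genes Rn18s-rs5, Rnr1 and Rnr2, the noncoding RNAs Rpph1 and Mir6236 and the protein-coding Lars2. Their sum was 15466 and 14193 CPM in the Cre libraries, 22957 CPM in GFP replicate 1 and 89687 CPM in GFP replicate 2. Pairs of libraries were also compared over well-counted genes by their median chi-square, as a multiple of counting noise. It was 1.78 for the 2 Cre libraries and 3.85 for the 2 GFP libraries. GFP replicate 1 gave 3.43 and 4.72 with Cre replicates 1 and 2, and GFP replicate 2 gave 4.35 and 5.85. By this measure GFP replicate 1 was nearer to Cre replicate 1 than to GFP replicate 2. The measure used unscaled library totals, so differences in library make-up enter it. The TMM factors were 1.01 for each Cre library, 1.03 for GFP replicate 1 and 0.951 for GFP replicate 2. How far this shifted the multiples was not tested.

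Several mitotic kinesins fell in the Cre cells, and no transport kinesin was called; the difference between the classes has no test of its own. Of the 13 mitotic genes, 12 had enough reads to test, and 7 of them fell: Kif11, Kif15, Kifc1, Kif4, Kif14, Kif20a and Kif20b. Over all 14483 genes tested, 6.97% were called, 3.22% lower and 3.74% higher, by edgeR's quasi-likelihood test at a Benjamini-Hochberg adjusted p of 0.05. None of the mitotic genes rose, and all 12 had a log2 fold change below 0, between -0.50 and -0.22, with a median of -0.42, where 51.1% of all genes lay below 0 and the median of all genes was -0.00447. Of 14 transport genes tested, 0 were called in either direction, and their log2 fold changes lay between -0.15 and 0.31 with a median of 0.02. Of the 10 remaining kinesins tested, 1 fell, Kif26b. In bulk RNA, fewer cells in division and less of these RNAs per dividing cell cannot be told apart.

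**Figure D1:**
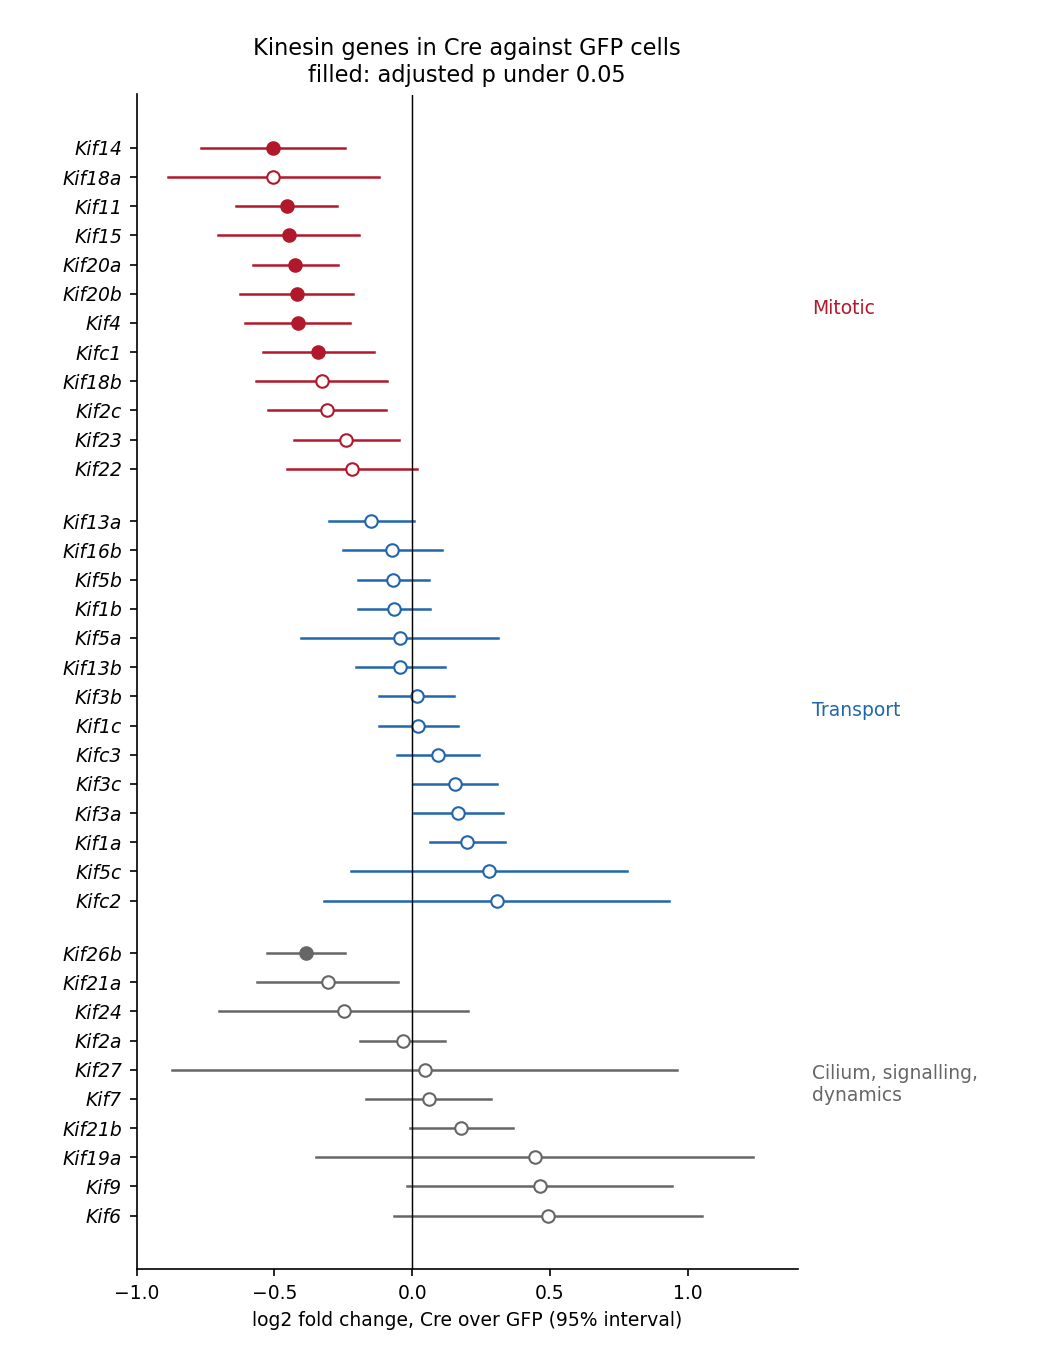
Log2 fold change of Cre over GFP for each of the 36 kinesin genes tested, by class, with 95% intervals as lines and filled circles at an adjusted p under 0.05. All 12 mitotic genes lie left of 0 and 7 are filled, while none of the 14 transport genes is filled.

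These calls rested on all 4 libraries. Of the 7 mitotic falls edgeR called 3 without Cre replicate 1 (1.76% of all genes then called lower), 4 without Cre replicate 2 (1.16%), 0 without GFP replicate 1 (0.0535%) and 0 without GFP replicate 2 (0%). In that last fit 2197 of all genes had an unadjusted p under 0.05 in either direction, and 8 mitotic kinesins were lower at that level. DESeq2 called 2, Kif11 and Kif20a (1.32%), and scaling by library size alone 3, Kif4, Kif11 and Kif20a (1.26%). The 7 were called with median-of-ratios scaling (3.19%), limma-voom (3.31%) and a minimum of 1 CPM in 2 libraries (3.64%), 8 with robust dispersion (4.2%) and 0 without a low-count filter (0.0471%). All 12 log2 fold changes lay below 0 in each of these fits, with medians between -0.42 and -0.38. Tested on mRNA genes alone, which leaves out the ribosomal RNAs high in GFP replicate 2 but keeps Lars2, 8 mitotic genes fell, the 7 and Kif2c (4.03%).

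The promoters of the mitotic kinesins are shown because most of them share a motif. Whether it has a part in their levels here was not tested. The cell cycle genes homology region is a short element near the start of many genes of late cell cycle, where the MuvB complexes bind, and the CCAAT box is bound by NF-Y. Windows from 250 bases before to 50 bases after the transcription start were taken from RefSeq (GRCm38.p6), with 32 of the 40 members found. They were searched on both strands. The homology region was taken as TTTGAA, and its variant with C as the third base, TTCGAA, was taken as well. That variant reads the same on both strands and was counted once. The other motif searched was CCAAT, whose last base can be the first of a neighbouring homology region. The stretches below run 5′ to 3′ on the gene's strand, from 60 bases before the start through its first 30 bases. Capitals mark the matches. Those on the opposite strand are printed as their complement, so that a homology region there reads TTCAAA, and a CCAAT box there starts with ATT and ends with GG. The first 5 belong to the mitotic genes that fell and hold the homology region near the start. Of the other two that fell, Kif20a is not shown, and Kif14 is given last, from 250 bases before its start, since its match lies farther away.
Kif11: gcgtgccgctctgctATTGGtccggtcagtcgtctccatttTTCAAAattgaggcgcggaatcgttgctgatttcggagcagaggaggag
Kif4: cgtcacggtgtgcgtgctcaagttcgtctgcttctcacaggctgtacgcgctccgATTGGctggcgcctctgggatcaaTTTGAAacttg
Kif15: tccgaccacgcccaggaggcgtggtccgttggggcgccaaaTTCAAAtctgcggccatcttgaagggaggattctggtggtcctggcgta
Kif20b: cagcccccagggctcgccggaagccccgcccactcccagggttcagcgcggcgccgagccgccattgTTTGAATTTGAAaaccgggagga
Kifc1: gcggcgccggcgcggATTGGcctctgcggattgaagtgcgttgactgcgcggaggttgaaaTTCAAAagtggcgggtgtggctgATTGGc
The next 3 belong to mitotic genes that did not pass the test.
Kif22: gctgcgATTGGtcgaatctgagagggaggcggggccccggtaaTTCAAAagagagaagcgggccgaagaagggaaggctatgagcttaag
Kif23: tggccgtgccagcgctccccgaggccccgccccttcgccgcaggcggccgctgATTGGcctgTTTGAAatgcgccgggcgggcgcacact
Kif18b: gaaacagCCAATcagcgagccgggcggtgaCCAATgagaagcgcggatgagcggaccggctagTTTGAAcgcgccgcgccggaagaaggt
Kif26b, the other kinesin that fell, and the transport motors Kif3a and Kif1b follow.
Kif26b: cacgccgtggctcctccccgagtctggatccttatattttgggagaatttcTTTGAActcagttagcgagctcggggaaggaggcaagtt
Kif3a: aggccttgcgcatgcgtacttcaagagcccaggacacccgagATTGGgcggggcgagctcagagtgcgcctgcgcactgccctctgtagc
Kif1b: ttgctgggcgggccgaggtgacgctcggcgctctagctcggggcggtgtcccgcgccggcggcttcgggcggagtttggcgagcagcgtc
Kif14: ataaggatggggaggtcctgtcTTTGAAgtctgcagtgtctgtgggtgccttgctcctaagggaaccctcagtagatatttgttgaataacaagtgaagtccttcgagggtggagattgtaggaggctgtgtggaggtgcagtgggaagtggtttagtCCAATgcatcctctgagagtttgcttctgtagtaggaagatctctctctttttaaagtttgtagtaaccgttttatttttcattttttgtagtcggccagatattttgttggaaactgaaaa

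On GRCm38.p6 these stretches lie at chr19:37376322-37376411 for Kif11 (plus strand), chrX:100626005-100626094 for Kif4 (plus), chr9:122951021-122951110 for Kif15 (plus), chr19:34922298-34922387 for Kif20b (plus) and chr17:33890604-33890693 for Kifc1 (minus). Those of Kif22, Kif23 and Kif18b lie at chr7:127042391-127042480, chr9:61946770-61946859 and chr11:102925095-102925184, all on the minus strand. Those of Kif26b, Kif3a and Kif1b lie at chr1:178529065-178529154 (plus), chr11:53567309-53567398 (plus) and chr4:149307704-149307793 (minus), and that of Kif14 at chr1:136467598-136467877 (plus). The homology region was held by 10 of the 12 mitotic genes with a window, which include the untested Kif2b and leave out Kif20a. It was held by 1 of 10 transport genes and by 3 of 10 other kinesins, where 21.7% of 27025 genes in the promoter table held it. Within 30 bases of the start, a limit chosen after the positions were seen, it was held by 8 mitotic, 0 transport and 2 other kinesins, Kif26b and Kif24, and by 3.64% of all genes. The match of Kif14 lay far from the start RefSeq gives in this table, 228 bases before it, and that of Kif2c 103 bases before. Kif18a and Kif2b had no match in this window. The CCAAT box was held by 8 mitotic, 3 transport and 4 other kinesins and by 41.1% of all genes. A match is a run of letters and not a measured binding site.

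**Figure D2:**
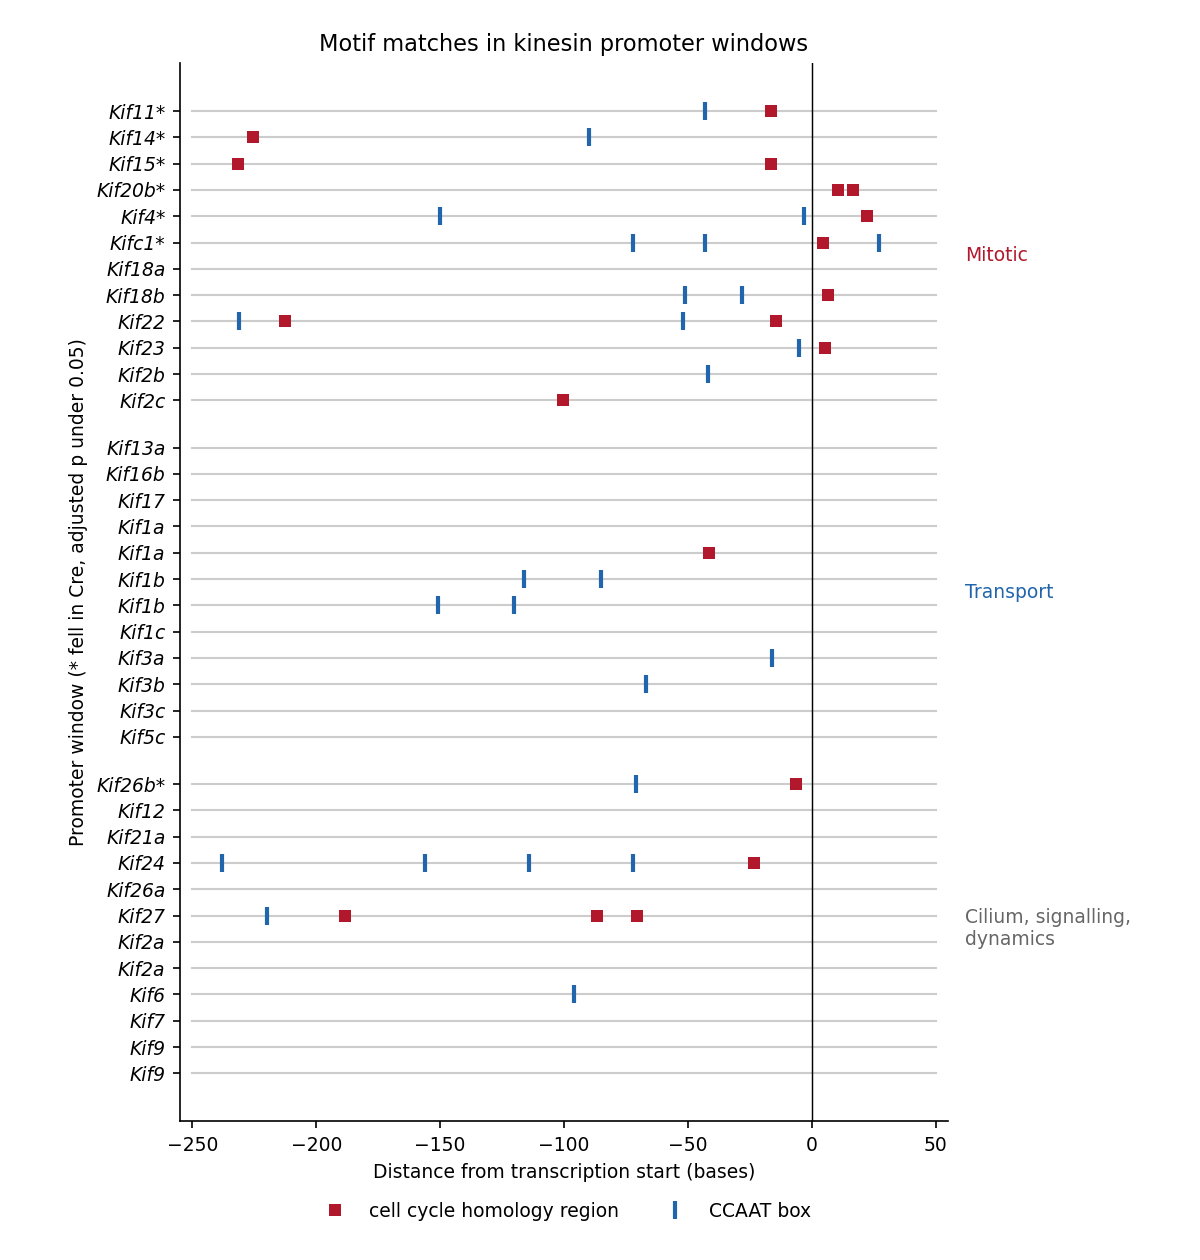
Positions of matches to the cell cycle genes homology region (squares) and the CCAAT box (bars) in promoter windows of 32 kinesin genes, by distance from the transcription start in bases; genes with 2 starts have 2 lines. Squares cluster within 30 bases of the start in 8 mitotic genes, Kif26b and Kif24, and in no transport gene.

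The same letters were looked at over the whole table. With a match anywhere in the window, 88 of 1748 tested genes (5.03%) were called lower in Cre, against 258 of 8893 (2.9%) with none, and the median log2 fold changes were -0.03 and -0.0021. The shares lay further apart under the 30-base limit chosen after the positions were seen. Of 283 tested genes with the homology region within 30 bases of the start, 31 (11%) were called lower in Cre, against 315 (3.04%) of the 10358 tested genes with a window but no such match. With the kinesins left out these were 25 of 273 (9.16%) and 314 of 10340 (3.04%). Among these, the median log2 fold change was -0.08 in genes with it and -0.0042 in genes without it. For the CCAAT box the shares were 3.16% with it and 3.32% without it. Late cell cycle genes other than kinesins were kept in all these counts, and the part of the motif in the falls was not tested.

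The 3 motors that set the distance between spindle poles all fell. Kif11, also called Eg5, slides antiparallel microtubules apart and so separates the poles. It had 24.7 and 23.6 CPM in the Cre libraries, against 33.7 and 32.4 CPM in the GFP libraries. Both Cre libraries lay under both GFP libraries, and the level was 72.9% of that in GFP (log2 fold change -0.46 ± 0.09 SE, edgeR adjusted p = 0.00125). Kif15, which helps to keep the spindle bipolar, had 10.1 and 9.74 CPM in Cre and 13.6 and 13.5 CPM in GFP (log2 fold change -0.45 ± 0.13 SE, adjusted p = 0.0247). Kifc1, a motor that walks to the minus end and draws poles together, had 20.6 and 19.4 CPM in Cre and 24.4 and 26.4 CPM in GFP (log2 fold change -0.34 ± 0.10 SE, adjusted p = 0.0300). The groups did not overlap in any of the 3, which held for 25.5% of all genes in this direction. The count of Kifc1 is uncertain, since 47.6% of the 50-base words of its longest transcript also occur in other genes, first among them its copy Kifc5b. That gene, whose name lies outside the naming rule, had 4.29 and 5.60 CPM in Cre and 5.63 and 6.73 CPM in GFP and did not pass (adjusted p = 0.332).

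Of the motors that ride on chromosome arms, Kif4 fell and Kif22 did not pass. Kif4 also works with Prc1 on the spindle midzone. It had 23.2 and 21.3 CPM in Cre, against 28.8 and 30.5 CPM in GFP (log2 fold change -0.41 ± 0.09 SE, adjusted p = 0.00464). Exons of Pdzd11 share 15.1% of its exon bases, and Pdzd11 stood at a log2 fold change of -0.04. Kif22, or Kid, which pushes chromosome arms outward, had 14.1 and 16.9 CPM in Cre and 19.1 and 16.9 CPM in GFP. It was the 1 mitotic gene whose groups overlapped, with Cre replicate 2 level with GFP replicate 2 (log2 fold change -0.22, 95% interval -0.46 to 0.02, adjusted p = 0.286).

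The motors that act on microtubule ends did not pass, though each lay below 0. Kif2c, or MCAK, takes microtubules apart at centromeres. It had 23.5 and 20.8 CPM in Cre and 24.4 and 30.6 CPM in GFP (log2 fold change -0.31, 95% interval -0.52 to -0.09, adjusted p = 0.0713). The lower GFP library was close to the higher Cre library. Kif18a, which damps chromosome movements at the metaphase plate, was the least abundant of the 12, with 4.22 and 4.49 CPM in Cre and 7.15 and 5.11 CPM in GFP. Its log2 fold change of -0.50 was as large as that of Kif14, but its interval ran from -0.89 to -0.12 (adjusted p = 0.103). Kif18b, which acts on astral microtubules together with Kif2c, had 13.6 and 13.5 CPM in Cre and 15.8 and 18.4 CPM in GFP (log2 fold change -0.33, adjusted p = 0.0851). Kif2b, a relative of Kif2c, had 0 counts in all 4 libraries.

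Among motors of the midzone and cytokinesis, Kif20a, Kif20b and Kif14 fell, and Kif23 did not pass. Kif20a, or MKLP2, brings the chromosomal passenger complex to the central spindle, and was the most abundant mitotic kinesin per length (13.4 and 14.1 CPM per kb of exon in the GFP libraries). It lies on chromosome 18 from 34624624 to 34633277 and had 43.3 and 45.7 CPM in Cre, against 58.1 and 61.2 CPM in GFP. With a log2 fold change of -0.42 and a standard error of 0.08 it had the smallest adjusted p of the 36 kinesins tested (4.49e-04). Exons of Cdc23 share 29.3% of its exon bases. Cdc23 stood at a log2 fold change of -0.13, with 76.1 ± 0.857 CPM in Cre and 83.1 ± 0.915 CPM in GFP (SD, n = 2 each). Kif20b, or MPP1, had 17.5 and 19.8 CPM in Cre and 25.2 and 24.6 CPM in GFP (log2 fold change -0.42 ± 0.10 SE, adjusted p = 0.00814). Kif14, which binds citron kinase at the midbody, had 9.48 and 10.2 CPM in Cre and 14.8 and 12.9 CPM in GFP (log2 fold change -0.50 ± 0.13 SE, adjusted p = 0.0125). In each of these 3 both Cre libraries were the lower ones, which held for 25.5% of all genes. Kif23, or MKLP1, the motor of centralspindlin, had 25.1 and 23.4 CPM in Cre, against 27.3 and 29.9 CPM in GFP. Its groups did not overlap, but its log2 fold change of -0.24 did not pass (95% interval -0.43 to -0.05, adjusted p = 0.123). The intervals of all 12 mitotic genes overlap, and differences between members were not tested.

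**Figure D3:**
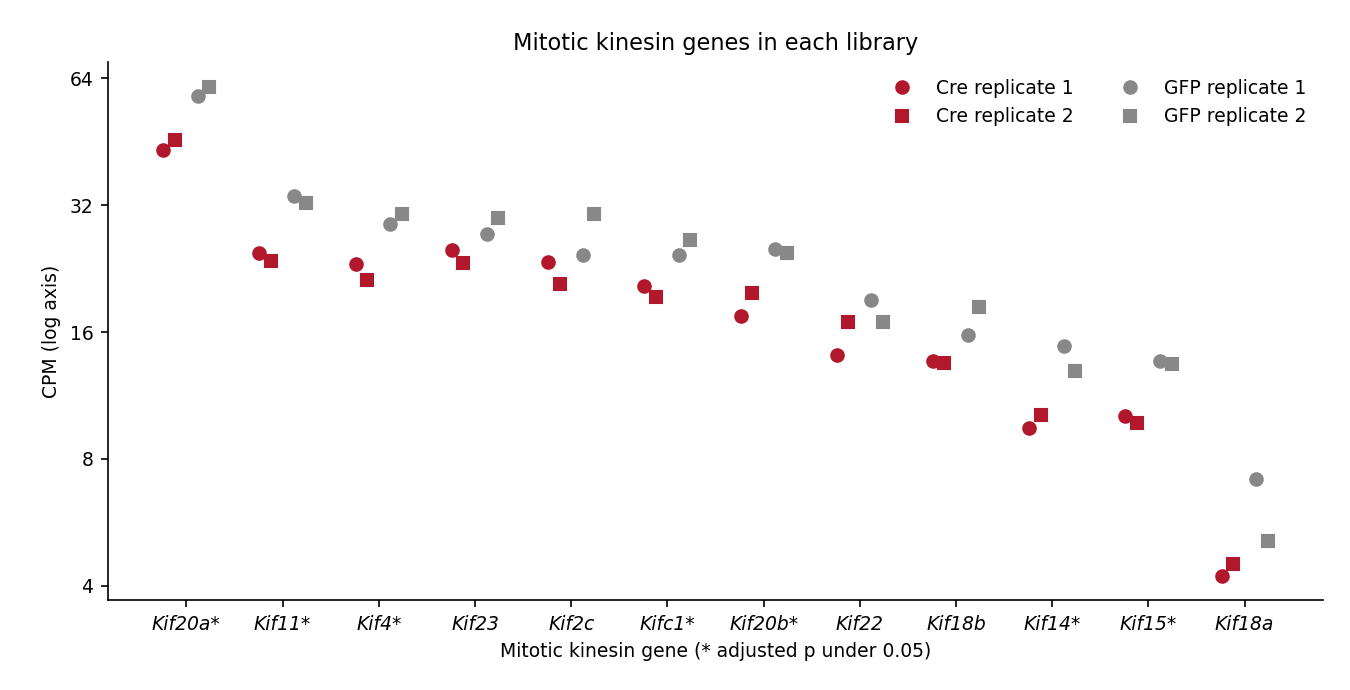
CPM of the 12 tested mitotic kinesin genes in each of the 4 libraries, on a log axis, with Cre libraries in red to the left and GFP libraries in grey to the right of each gene. Both Cre points lie under both GFP points in 11 of the 12 genes, Kif22 being the exception, where this held for 25.5% of all genes tested.

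Cenpe, a kinesin that carries chromosomes to the spindle equator but bears no Kif name, fell as well, with 42.6 and 37.0 CPM in Cre and 51.3 and 51.7 CPM in GFP (log2 fold change -0.37 ± 0.08 SE, adjusted p = 0.00353). It stands outside the 40 members.

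The transport motors were the more abundant class. Per kb of exon, Kif1c (52.9 CPM per kb over the 4 libraries) and Kif5b (36.3) led, followed by Kif3b (15.5), Kif1b (14.6) and Kif3a (13.3), while the mitotic genes after Kif20a lay at 6.65 (Kifc1) or less. Kif5b, the widely expressed heavy chain of conventional kinesin, had 289.9 and 276 CPM in the Cre libraries, against 296 and 297 CPM in the GFP libraries. Both Cre libraries were slightly lower, and the log2 fold change of -0.07 had a 95% interval from -0.20 to 0.06 (adjusted p = 0.593). Kif1b, which moves mitochondria and vesicle precursors, had 258 and 246 CPM in Cre and 258 and 269 CPM in GFP (log2 fold change -0.07, 95% interval -0.20 to 0.07). Kif1c had 386 and 390.1 CPM in Cre and 349 and 415 CPM in GFP, so the Cre values lay between the GFP values (log2 fold change 0.02, 95% interval -0.12 to 0.17). For these 3 motors the intervals reach no lower than -0.20, above the median of the mitotic genes.

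Kif3a and Kif3b form the heterotrimeric kinesin that drives transport into cilia. Kif3a had 53.0 and 47.8 CPM in Cre and 45.8 and 43.9 CPM in GFP, with both Cre libraries higher (log2 fold change 0.17, 95% interval 0.01 to 0.33, adjusted p = 0.214). Kif3b had 90.2 and 85.8 CPM in Cre and 86.6 and 87.4 CPM in GFP (log2 fold change 0.02). Kif3c had 58.4 and 57.8 CPM in Cre and 50.2 and 54.3 CPM in GFP (log2 fold change 0.16, adjusted p = 0.228), and 40.7% of its exon bases lie in other genes, first among them 1110002L01Rik. Kif1a, known from axonal transport of synaptic vesicle precursors, came nearest to a call in this class. It had 108 and 104 CPM in Cre and 88.9 and 96.6 CPM in GFP (log2 fold change 0.20, 95% interval 0.06 to 0.34, adjusted p = 0.0662), and the robust dispersion estimate alone of the settings run called it (adjusted p = 0.0387, with 5.01% of all genes then called higher). Kif1a, Kif3a and Kif3c were the 3 transport genes with an unadjusted p under 0.05, all higher, where 10.6% of all genes were higher and 10.4% lower at that level. DESeq2 and limma-voom each called 0 transport genes, where they called 2.54% and 3.88% of all genes higher.

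The remaining transport motors ran both ways. Kif13a had 48.9 and 45.9 CPM in Cre and 52.9 and 52.2 CPM in GFP, a log2 fold change of -0.15, the lowest of the class (adjusted p = 0.261). Kif13b stood at -0.04, the endosome motor Kif16b at -0.07 and Kif5a at -0.05. Kifc3, a minus-end motor, was at 0.09 (adjusted p = 0.511). The rare Kif5c and Kifc2, each under 4 CPM in every library, stood at 0.28 and 0.31 with intervals from -0.22 to 0.78 and from -0.32 to 0.93. Kif17, a motor of dendrites and cilia, had 10 and 7 counts in Cre and 4 and 1 in GFP and was too low to test. Of the 14 tested, 3 had both Cre libraries under both GFP libraries and 5 had them over, against 25.5% and 24.5% of all genes.

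Summed over each class, the 13 mitotic genes held 229 and 229 CPM in the Cre libraries, against 292 and 302 CPM in the GFP libraries. The 15 transport genes held 1451 and 1405 CPM in Cre and 1378 and 1470 CPM in GFP. The mitotic sum was thus 15.8% and 16.3% of the transport sum in the Cre libraries and 21.2% and 20.6% in the GFP libraries. The groups were apart in the mitotic sum and in this ratio and overlapped in the transport sum, in which GFP replicates 1 and 2 were the lowest and highest values. These sums weigh abundant genes most and carry no test.

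**Figure D4:**
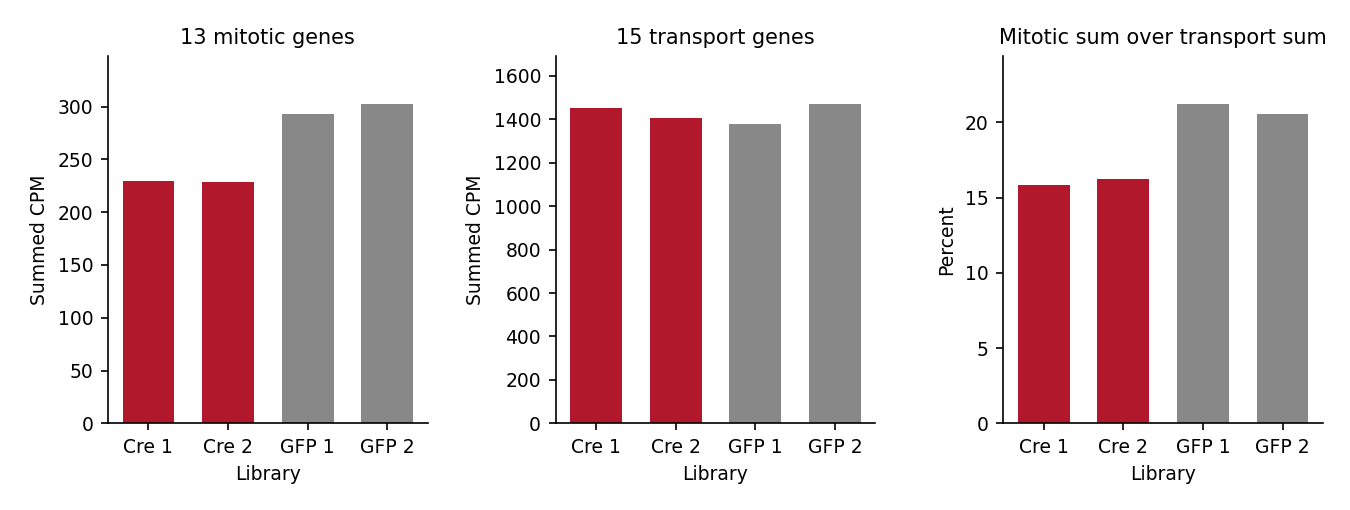
Summed CPM of the 13 mitotic and the 15 transport kinesin genes and the mitotic sum as a percent of the transport sum, 1 bar per library, Cre in red and GFP in grey. The mitotic sum and the ratio are lower in both Cre libraries, and the transport sums overlap.

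Of the 12 motors of cilia, signalling and microtubule dynamics, 10 could be tested and Kif26b fell. It encodes a kinesin family member without motor activity that takes part in Wnt5a-Ror signalling and kidney development, and had 74.8 and 69.4 CPM in Cre, against 92.01 and 96.4 CPM in GFP. Both Cre libraries were lower (log2 fold change -0.39 ± 0.07 SE, adjusted p = 4.69e-04), and DESeq2 called it too. It lies on chromosome 1 from 178529125 to 178932857. The call was lost without either GFP library, with adjusted p = 0.239 without GFP replicate 1 and 0.278 without GFP replicate 2, and log2 fold changes of -0.42 and -0.35. Kif21a, which restrains microtubule growth, had 12.4 and 10.9 CPM in Cre and 15.4 and 13.3 CPM in GFP (log2 fold change -0.31, adjusted p = 0.144), while its relative Kif21b stood at 0.18 (adjusted p = 0.268). Kif2a, a depolymerase of neurons and spindles, had 59.7 and 55.8 CPM in Cre and 56.7 and 61.7 CPM in GFP (log2 fold change -0.03), with 19.2% of its exon bases shared, first with Dimt1.

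The cilium genes among them were mostly rare. Kif7, the motor-like regulator of hedgehog signalling at the cilium tip, had 17.9 and 16.1 CPM in Cre and 15.98 and 16.7 CPM in GFP (log2 fold change 0.06, 95% interval -0.17 to 0.29). Kif24, which holds back cilium formation at the mother centriole, stood at -0.25 (adjusted p = 0.577). Kif6 (0.49), Kif9 (0.46), Kif19a (0.45) and Kif27 (0.04), all under 4 CPM, did not pass, and their intervals all include 0. Kif26a had 13 and 7 counts in Cre and 8 and 4 in GFP, and Kif12 had 0 counts in all libraries, so neither was tested.

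Many partners of the mitotic kinesins fell too, in lists chosen with earlier results of these data known. Of 10 genes of the central spindle, 6 fell and 0 rose (median log2 fold change -0.34). They included Anln, a scaffold of actin and septins (-0.55), and the midbody gene Cep55 (-0.62). Prc1, which bundles midzone microtubules and recruits Kif4 (-0.40), and Aurkb, the kinase of the passenger complex that Kif20a carries (-0.42), were also among the 6. Of 12 genes of the spindle pole and chromosome arm, 6 fell and 0 rose (median -0.26), Cenpe, already described, being 1 of the 6. Also among them were Ckap2 (-0.70), Hmmr (-0.48) and Tpx2, which targets Kif15 to the spindle (-0.22). Of 14 G2/M genes 10 fell and 0 rose (median -0.32), with Cenpf at -0.68 and Nek2 at -0.51. Of 12 S-phase genes, 9 had a log2 fold change below 0, where 51.1% of all genes did. At an unadjusted edgeR p under 0.05, 5 of the 12 were lower and 0 higher, where 10.4% of all genes were lower and 10.6% higher. At the adjusted p, 1 of the 12 fell, Pole (-0.40), and 0 rose (median -0.11). These shares stand against 3.22% lower and 3.74% higher over all genes, and the losses without single libraries given above for the kinesins apply here too, since without GFP replicate 2 no gene of the table was called.

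No partner gene of the transport motors was called lower and some were called higher, against 3.22% lower and 3.74% higher over all genes. At a share of 3.22%, few falls would be found in lists of this size. These lists too were chosen with earlier results of these data known. Of 17 light chain and cargo adaptor genes 0 fell and 2 rose, the kinesin light chain genes Klc4 (0.35) and Klc2 (0.24), with a median of 0.01. Of 21 genes of cytoplasmic dynein and dynactin, the motor that runs the other way, 0 fell and 1 rose, Dctn3 (0.25). The counts of the dynein and dynactin list are near the shares over all genes. At an unadjusted edgeR p under 0.05, 4 of the 17 light chain and adaptor genes were higher and 2 lower. At that level 10.6% of all genes were higher and 10.4% lower. Among 15 tubulin genes, 0 fell and 4 rose: Tubb3 (0.40), Tubb2a (0.29), Tuba1a (0.24) and Tubb2b (0.23). Their median was 0.17, and near-identical tubulin copies can share reads. Of 21 genes of intraflagellar transport and hedgehog output, 0 were called by edgeR. At an unadjusted p under 0.05, 3 were lower and 1 higher, where 10.4% of all genes were lower and 10.6% higher. Macrophage, stromal and lymphocyte markers moved with the groups as given above, and their part in the kinesin levels was not tested.

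**Figure D5:**
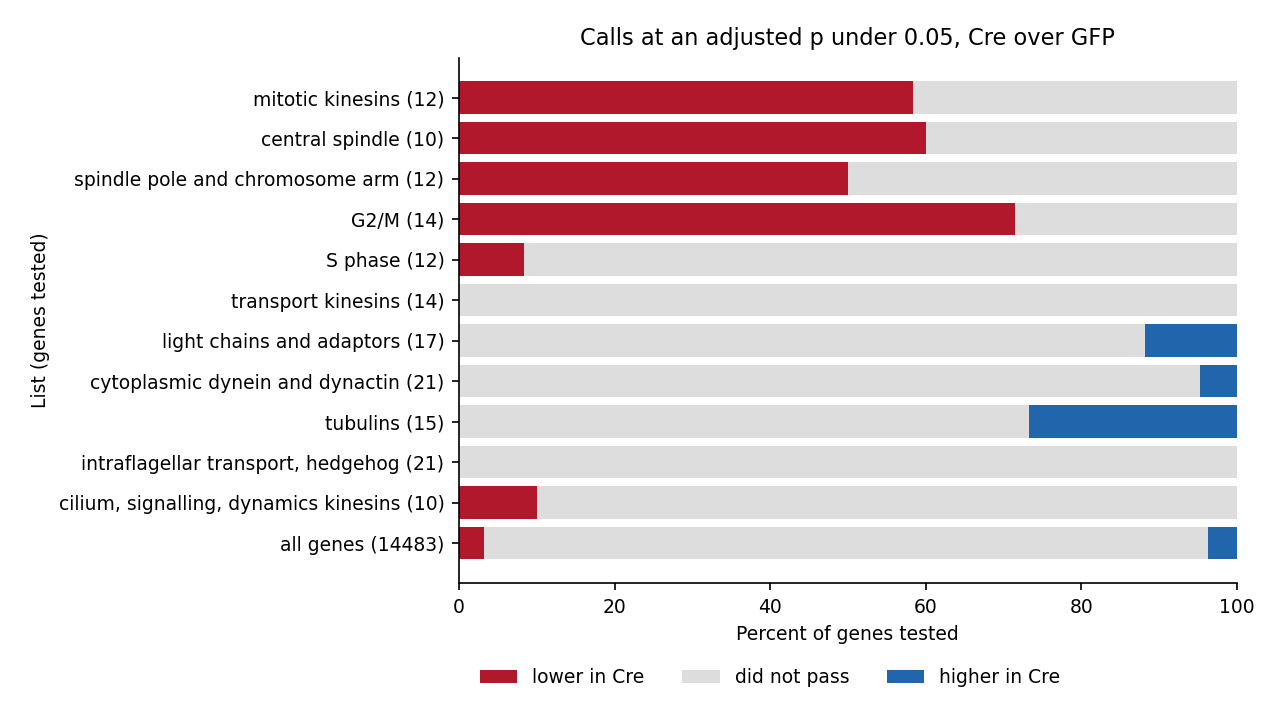
Percent of tested genes called lower (red), called higher (blue) or neither (grey) in Cre over GFP at an adjusted p under 0.05, for the kinesin classes, partner lists and all genes, with the number tested in brackets. The mitotic kinesins (7 of 12 lower) resemble the central spindle, spindle pole and G2/M lists in their share of falls. No list of transport machinery has a fall, where 3.22% of all genes fell.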

How the data were processed

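Whole-number read counts per gene were used as the authors deposited them, without normalization, for 44788 genes in 4 libraries made with the TruSeq RNA kit, which keeps no strand. Per the submitters' processing notes, reads were aligned with HISAT2 to GRCm38; no source used here gives the counting program, its annotation, its strand setting or how it treated reads with several places. Counts of overlapping genes are therefore uncertain.

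Counts were tested with edgeR 4.0.16 in R 4.3.3: filterByExpr (minimum count 10, total 15), TMM, the quasi-likelihood F-test on virus alone and Benjamini-Hochberg adjustment over 14483 genes at 0.05. Standard errors are the log2 fold change divided by the root of F. Positions are RefSeq's on GRCm38.p6, lengths and shared exon bases GENCODE M21's. A floor of 3 counts is 0.207 to 0.255 CPM and covers counting error only. DESeq2 1.42.0, limma-voom (limma 3.58.1) and the other alternatives stand in the closing section.

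All 40 members may be named; called members, the 8 examples of the rule and the 3 with most reads per kb in each class were to have values in every library; those of other members were added after their values were seen. Partner genes are named among the 6 smallest adjusted p-values of their list. Members, classes and lists were chosen with earlier results of these data known. The class list also held Kifc5b, which the naming rule leaves out. No protein sequences were used here.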

Additional observations from a re-analysis of the deposited data

How the results depend on the processing

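The call of 7 mitotic kinesins fell to 3 with scaling by library size alone, 2 in DESeq2, 0 without a low-count filter and 4 at an adjusted p of 0.01, and to between 0 and 4 when a library was left out. Over all genes, 1009 calls became 530 with scaling by library size alone (183 lower, 347 higher, against 467 and 542), 380 in DESeq2 (130 lower, 250 higher), 30 without a low-count filter, 477 at 0.01, and between 0 and 516 without a library. Without the low-count filter, 10 mitotic genes were lower at an unadjusted p under 0.05 in edgeR. In that fit 2762 of 25476 genes passed that level in either direction. All 12 mitotic log2 fold changes lay below 0 without GFP replicate 1 and without GFP replicate 2. The medians of all genes were then 0.0022 and -0.0068. The transport class gained 1 call, Kif1a, with robust dispersion, and kept 0 without any of the libraries. Kif26b, the single call of the remaining class, became 0 without a low-count filter and ranged from 0 to 1 without a library. Median-of-ratios scaling, limma-voom, a minimum of 1 CPM in 2 libraries and mRNA genes alone left the mitotic count at 7 or 8. The mitotic median was -0.38 with Kif2a and Kif24 added, and from -0.41 to -0.38 without a library; the transport median was from 0.00 to 0.05 without a library. The causes were not tested. With the replicate number as a block, 829 genes and the same 7 mitotic kinesins were called. The numbers share no stated culture or animal, and deviations of same-numbered libraries had a correlation of -0.00886, so the block pairs nothing known. No kinesin call changed sign in any setting run. Kifc2, Kif5c, Kif19a and Kif27 had under 4 CPM in every library and wide intervals.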
